A study of Mus musculus with 4 samples.

Results

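The transient receptor potential (TRP) family of cation channels was followed through 8 of its genes in pancreatic islets of mutant and wild-type mice. These were Trpm5, Trpm4, Trpm2, Trpm3, Trpm7, Trpc1, Trpv2 and Trpa1. They were found by gene symbol, and all 8 were present among the 22481 gene symbols of the deposited expression table, next to 19 other TRP genes that were examined. The list was selected on the KO and WT values themselves, that is, with their difference already known, so the levels and fold changes of its members are descriptions. A p-value beside one of them says only on which side of the threshold of the test across all genes it lay.

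The samples were 2 libraries from Ngn3Mettls KO islets (KO) and 2 from wild-type islets (WT), all of mice of the 129sv strain at 2 weeks of age, and each library pooled more than 400 islets. The labels do not spell out which Mettl genes the name stands for or how they were deleted, and name no promoter or Cre. Whether the pools stem from separate animals is not labelled, so p-values measure the spread between these pools. RNA depleted of ribosomal RNA was sequenced, and 2 values per gene and library were used. FPKM is the authors' estimate of fragments per transcript length and library depth and was used to compare levels between genes. CPM is the deposited estimated count scaled to a common library total after TMM normalisation and was used to compare a gene between libraries. The depth behind these values was 5132726 and 4057724 fragments in KO replicates 1 and 2, against 5232235 and 4347110 in WT replicates 1 and 2.

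TRP channels are tetramers that pass cations into the cytosol and so depolarise a cell or raise its calcium. TRPM5 and TRPM4 are opened by intracellular calcium and carry monovalent cations. TRPM5 is best known from taste cells and is also a channel of beta cells, where its loss in mice blunts insulin secretion evoked by glucose. TRPM2 is opened by ADP-ribose and calcium, TRPM3 by steroids such as pregnenolone sulfate and by heat, and TRPM7 is a channel fused to a kinase that carries magnesium, zinc and calcium. TRPC1 is a subunit of channels coupled to receptors and calcium stores, TRPV2 responds to heat and stretch, and TRPA1 is a sensor of irritants. The methyltransferase that places m6A, the methyl mark on adenosines of mRNA, has METTL3 and METTL14 as its core, and Ngn3 (gene Neurog3) is the factor that starts endocrine differentiation in the embryonic pancreas.

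The stretch upstream of the gene start is shown for Trpm5, Trpm2 and Trpc1, because these were the members whose 95% interval of the KO to WT difference lay below 0. Each is the 250 bases before the RefSeq start (GRCm38.p6), on the gene's own strand, with matches to CANNTG (the E-box bound by basic helix-loop-helix factors such as Neurog3) and to TAAT (the core of homeodomain sites) in capitals, read on both strands. The Trpm5 window is chr7:143094643-143094892 on the minus strand. The Trpm2 window is chr10:77969873-77970122 on the minus strand and lies inside the span that the deposited table gives for the gene, since the RefSeq start used here is further into it. The Trpc1 window is chr9:95750349-95750598 on the minus strand.
Trpm5: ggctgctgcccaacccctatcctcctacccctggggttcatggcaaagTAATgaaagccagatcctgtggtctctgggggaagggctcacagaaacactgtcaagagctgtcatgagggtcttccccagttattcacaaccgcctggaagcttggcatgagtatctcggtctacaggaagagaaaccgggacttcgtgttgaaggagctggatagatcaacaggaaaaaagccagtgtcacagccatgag
Trpm2: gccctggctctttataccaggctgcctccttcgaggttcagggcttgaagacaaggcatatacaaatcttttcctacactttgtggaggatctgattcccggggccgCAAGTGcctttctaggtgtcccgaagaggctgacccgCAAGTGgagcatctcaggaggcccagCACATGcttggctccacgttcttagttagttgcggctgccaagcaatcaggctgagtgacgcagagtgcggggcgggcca
Trpc1: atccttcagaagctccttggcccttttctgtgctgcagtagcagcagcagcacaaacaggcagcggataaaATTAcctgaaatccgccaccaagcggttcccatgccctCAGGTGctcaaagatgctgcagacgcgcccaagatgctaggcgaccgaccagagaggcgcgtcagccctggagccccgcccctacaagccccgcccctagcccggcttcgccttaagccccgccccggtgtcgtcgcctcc

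The Trpm5 window held 1 TAAT match, at positions −202 to −199 relative to the start, and no CANNTG match. The Trpm2 window held 3 CANNTG matches and no TAAT match, and the Trpc1 window held 1 of each. Among 32817 mouse promoter windows of the same length, 66.2% held CANNTG and 54.9% held TAAT. Other motifs searched on both strands were TGCTGA, which is part of the element bound by Maf factors, GGGCGG (the core of Sp1 sites), TATAAA and TGACGTCA (a cyclic AMP response element). None of the 3 windows held TGCTGA or TGACGTCA, which were present in 16.1% and 1.55% of all windows. GGGCGG was matched once in Trpm2 and 3 times in Trpc1, against 32.7% of windows with a match, and TATAAA once in Trpm2, against 12.4% of windows. No match overlapped another motif's match in these 3 windows. The matches describe letters and say nothing of binding.

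Trpm5 stood apart among the members in the size of its difference. It had an FPKM of 13.9 and 6.81 in the KO libraries, against 62.6 and 34.0 in the WT libraries. These rested on 159 and 47 fragments in KO and on 659 and 298 in WT, so the gene was counted well in every library. Both KO values lay under both WT values, and replicate 1 was about double replicate 2 in each genotype.

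On the CPM scale Trpm5 was at 30.2 and 11.7 in KO and at 127 and 68.9 in WT, and its KO mean was 21.4% of the WT mean (20.95 ± 13.05 against 98.1 ± 41.2, SD, n = 2 each). The log2 fold change, KO minus WT, was −2.22 ± 0.43 (SE), which is a ratio of 0.214 with a 95% interval of 0.108 to 0.427. Only 0.125% of the 12789 genes tested had a more negative fold change. Even so, edgeR's quasi-likelihood test with Benjamini-Hochberg adjustment over all genes left Trpm5 short of the 0.05 threshold (adjusted p = 0.122), with 2 libraries a group and this spread inside each. Whether Trpm5 passed varied with the setting. The adjusted p was 0.00415 without KO replicate 1 (log2 fold change −3.07) and 0.000182 without WT replicate 2 (−2.60), against 0.123 without KO replicate 2 (−1.70) and 0.0725 without WT replicate 1 (−1.72).

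Trpm5 lies on chromosome 7 at 143069153 to 143094642 (mm10, minus strand; ENSMUSG00000009246), in the stretch of imprinted genes around Kcnq1. Of its 6398 annotated exon bases, 220 near the end of the gene are shared with Tssc4 on the opposite strand. The libraries were made to keep strand, but how strand was used in counting is not stated, so a small exchange of reads with Tssc4 was not tested. Tssc4 itself, named here for this overlap, had 62.5 and 48.2 CPM in KO and 37.9 and 56.3 in WT, and these ranges overlapped.

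**Figure D1:**
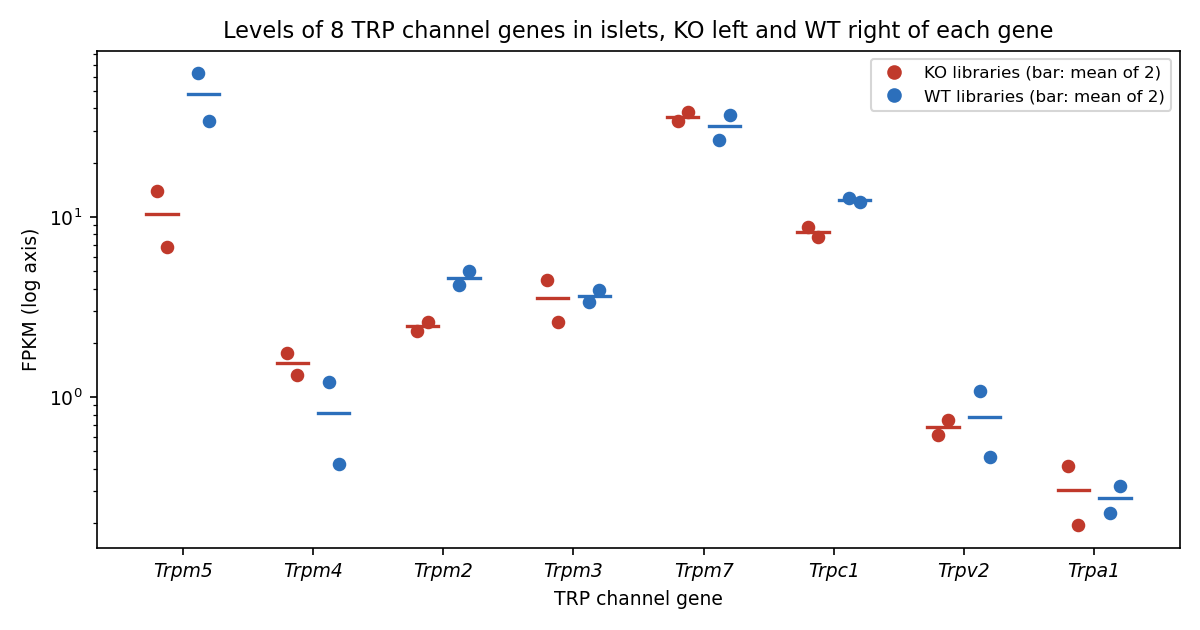
Levels of the 8 members in each library, as FPKM on a log axis, with KO libraries left and WT libraries right of each gene and bars at the means of 2 libraries. Trpm5 has KO points of 13.9 and 6.81 under WT points of 62.6 and 34.0, while the points of Trpm7, Trpm3, Trpv2 and Trpa1 overlap between the genotypes.

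Trpm4, the closest relative of Trpm5 and likewise opened by calcium, had low levels that pointed the other way. Its FPKM was 1.76 and 1.32 in KO, against 1.21 and 0.427 in WT. The 2 KO values were above both WT values, with WT replicate 2 far under the rest. The CPM values were 8.86 and 6.73 in KO and 6.21 and 2.11 in WT, a log2 fold change of 0.90 ± 0.54 whose 95% interval of −0.35 to 2.16 included 0 (edgeR adjusted p = 0.534). Leaving out a library moved it between 0.33 and 1.86. The Trpm4 counts were fractional, at 46.4 and 27.1 fragments in KO and 31.7 and 9.25 in WT, so part of them was assigned by estimate. Trpm4 (chromosome 7, 45303155 to 45333780, minus strand) lies far from Trpm5 on the same chromosome.

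Trpm2 was the second member with lower values in both KO libraries. This channel conducts calcium and sodium when ADP-ribose builds up, for example under oxidative stress. Its FPKM was 2.33 and 2.60 in KO, against 4.17 and 4.998 in WT, from 63 and 39 fragments in KO and 114 and 84 in WT. In CPM it had 12.03 and 9.77 in KO and 22.1 and 19.5 in WT, so KO was at 52.5% of WT with no overlap. The log2 fold change was −0.93 ± 0.25 (95% interval −1.51 to −0.34), and it did not pass the edgeR threshold (adjusted p = 0.222). It stayed between −1.10 and −0.79 when any 1 library was left out. Trpm2 (ENSMUSG00000009292) lies on chromosome 10 at 77907722 to 77970563.

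Trpc1, the store- and receptor-coupled subunit, showed the same direction at a smaller size. Its FPKM was 8.78 and 7.78 in KO, against 12.7 and 12.1 in WT, from 161 and 111 fragments in KO and 232 and 182 in WT. Its CPM values of 30.6 and 27.8 in KO and 44.8 and 42.1 in WT put KO at 67.2% of WT, with a tight spread in both groups. The log2 fold change was −0.57 ± 0.16 (95% interval −0.93 to −0.21; edgeR adjusted p = 0.224) and ranged from −0.65 to −0.51 with 1 library left out. Trpc1 lies on chromosome 9 at 95706627 to 95750358.

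Trpm7, the channel with a kinase domain, was the most abundant member in KO and stood close to equal between the genotypes. Its FPKM was 33.9 and 38.0 in KO, against 26.8 and 36.8 in WT, so the libraries overlapped on this scale. On the CPM scale, at 189 and 204 in KO and 149 and 182 in WT, both KO values were the higher. The log2 fold change was 0.24 ± 0.13 (95% interval −0.06 to 0.55; edgeR adjusted p = 0.490). Trpm7 lies on chromosome 2 at 126791558 to 126876261.

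For Trpm3 the deposited scales disagreed. Its FPKM was 4.45 and 2.60 in KO and 3.38 and 3.94 in WT, with overlap, while its CPM was 19.2 and 19.1 in KO and 22.7 and 22.8 in WT, without overlap. The ratio of the deposited count to the deposited FPKM differed up to 1.65-fold between libraries for this gene. Trpm3 has many transcripts over a long span of chromosome 19 (22139119 to 22989884). This ratio also differed between libraries for Trpv2 (2.06-fold), Trpm2 (1.42-fold), Trpm5 (1.30-fold) and Trpm7 (1.13-fold). The log2 fold change of Trpm3 from counts was −0.25 ± 0.20 (95% interval −0.71 to 0.21, edgeR adjusted p = 0.650).

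Trpv2 and Trpa1 were near the limit of what these depths can show. Trpv2 had an FPKM of 0.614 and 0.748 in KO and 1.09 and 0.465 in WT, from 13 and 6 fragments in KO and 19 and 7 in WT. Its log2 fold change of −0.39 ± 0.66 (95% interval −1.93 to 1.16; edgeR adjusted p = 0.858) turned to 0.25 without WT replicate 1. Trpa1 had 0.416 and 0.194 FPKM in KO and 0.227 and 0.322 in WT, from 11 and 4 fragments in KO and 6 and 7 in WT. It fell under the filter on low counts and was not tested. A KO to WT difference in either gene was not detectable at this depth.

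Of the 8 members, 7 passed the filter and 0 of these 7 were called by edgeR at an adjusted p under 0.05, a threshold that 0.227% of all tested genes met. DESeq2 also called 0 of 7, against 1.16% of all genes it tested. It gave Trpv2 no adjusted p and so could not call it, and the 1.16% also counts such genes as tested. Limma on log2(FPKM + 1) called 0 of the 6 that passed its own filter, against 0% of all. In edgeR 17 genes (0.133%) were called higher and 12 (0.0938%) lower in KO. An unadjusted edgeR p under 0.05 was reached by 3 of the 7 (Trpm5, Trpm2 and Trpc1), against 12.6% of all tested genes, and by all 3 with lower values in KO, against 6.04%. The CPM of KO and WT did not overlap for 6 of 7, lower in KO for 4 and higher for 2, against 45% of all tested genes without overlap, 22.3% lower in KO and 22.7% higher. The median log2 fold change of the 7 was −0.39, beside 0.0046 for all genes tested. Since the members were selected on this same contrast, nothing is read from these counts.

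**Figure D2:**
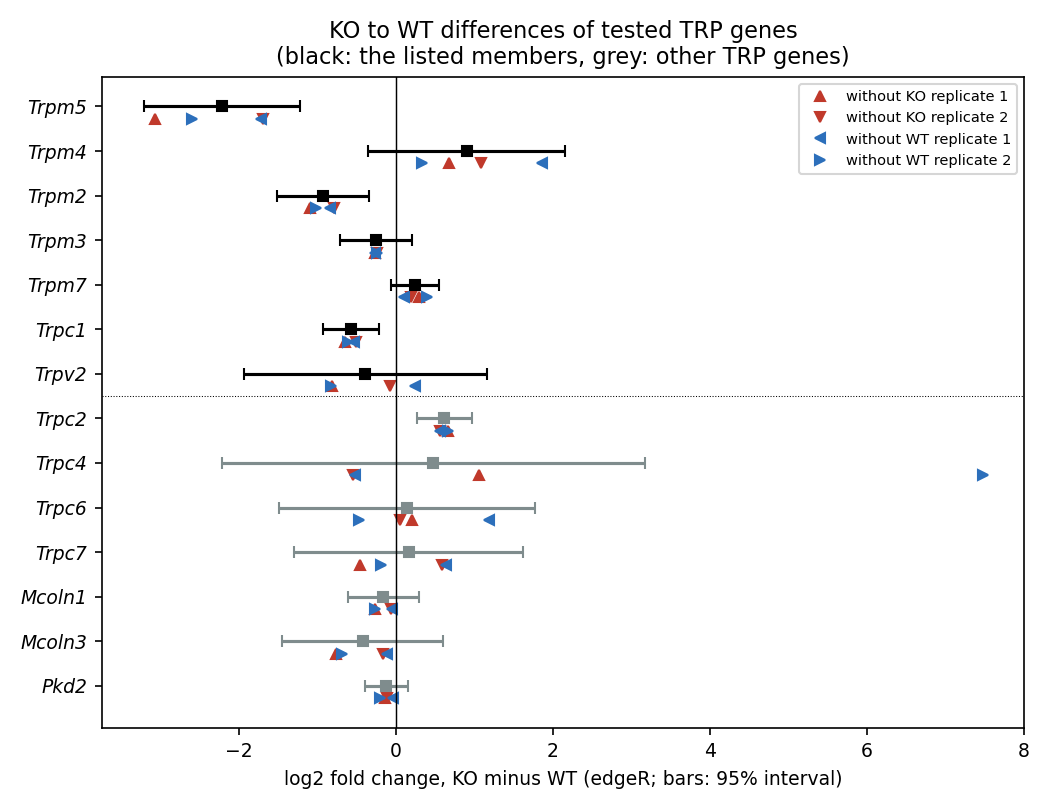
Log2 fold changes of CPM, KO minus WT, for the 7 tested members (black) and 7 other tested TRP genes (grey), with 95% intervals from edgeR and triangles for the value with 1 library left out. The intervals of Trpm5, Trpm2 and Trpc1 lie below 0 and that of Trpc2 above 0, and the triangles of Trpv2 and of 3 other low genes (Trpc4, Trpc6 and Trpc7) fall on both sides of 0.

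Set side by side by FPKM, the members stood in a different order in the 2 genotypes. In KO islets Trpm7 (36.0 ± 2.9) was first, then Trpm5 (10.3 ± 5.0) and Trpc1 (8.28 ± 0.71), whose libraries overlapped, then Trpm3 (3.53 ± 1.31), Trpm2 (2.46 ± 0.19), Trpm4 (1.54 ± 0.31), Trpv2 (0.681 ± 0.094) and Trpa1 (0.305 ± 0.157, SD, n = 2 each). Apart from Trpm5 and Trpc1 no neighbours in the KO order overlapped, although the lower Trpm3 library and the higher Trpm2 library were both at 2.60. In WT islets Trpm5 (48.3 ± 20.2) was first and Trpm7 (31.8 ± 7.1) second, and these overlapped. Trpc1 (12.4 ± 0.4), Trpm2 (4.58 ± 0.59) and Trpm3 (3.66 ± 0.40) followed as separate steps, then Trpm4 (0.818 ± 0.553) and Trpv2 (0.776 ± 0.440), which overlapped, and Trpa1 (0.275 ± 0.067). With the deposited count divided by the length of the longest annotated coding transcript, a scale added after the data were seen, the WT order stayed as by FPKM. In KO that scale put Trpc1 ahead of Trpm5, and Trpm4 ahead of Trpm3 and Trpm2.

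The ratio of Trpm5 to Trpm7 FPKM within a library was 0.410 and 0.179 in KO, against 2.34 and 0.925 in WT. Trpm5 was thus under Trpm7 in both KO libraries and in WT replicate 2, and above it in WT replicate 1. Its share of the summed FPKM of the 27 TRP genes examined was 10.8% and 5.68% in KO, against 34.7% and 22.4% in WT. The summed FPKM was 129 and 119.9 in KO and 180.5 and 152 in WT. Without Trpm5 it was 115 and 113 in KO and 118 and 118 in WT, so the sums of the remaining 26 genes were close, with both KO sums slightly under both WT sums.

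**Figure D3:**
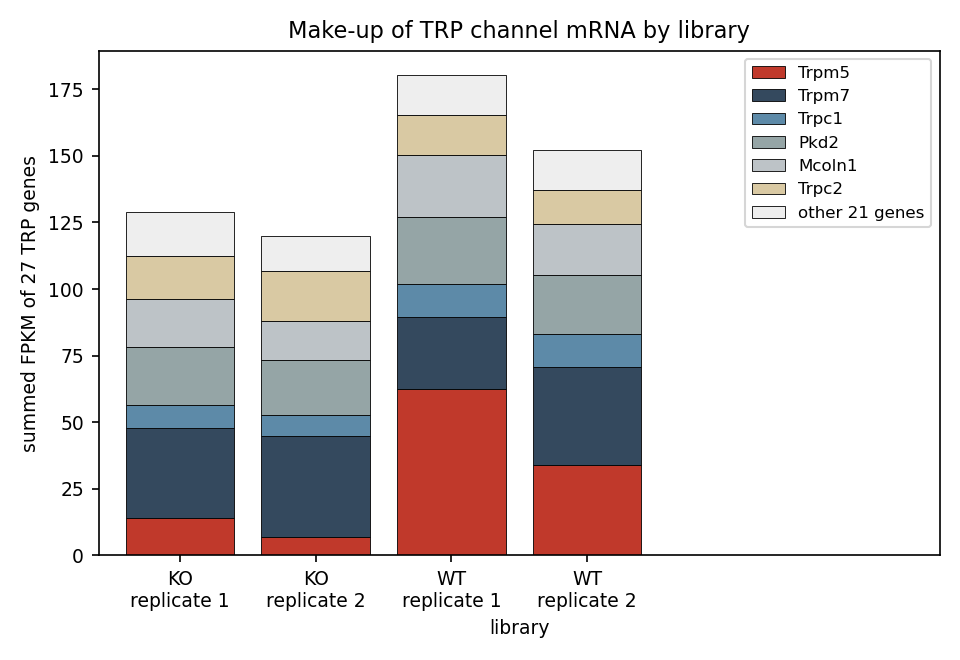
Summed FPKM of 27 TRP genes in each library, stacked by gene, with KO libraries left of WT libraries. The Trpm5 layer is 13.9 and 6.81 high in KO and 62.6 and 34.0 in WT, while the layers above it add to 115 and 113 in KO and to 118 and 118 in WT.

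Among the 19 other TRP genes examined 7 passed the filter, 4 with higher and 3 with lower values in KO and a median log2 fold change of 0.14. None was called by edgeR, DESeq2 or limma, although DESeq2 gave Trpc4, Trpc6, Trpc7 and Mcoln3 no adjusted p and so could not call them. Of the 7, 1 had an unadjusted edgeR p under 0.05. That gene is deposited as Trpc2, a pseudogene in humans and a pheromone channel of mice, with an FPKM of 16.1 and 18.7 in KO against 14.9 and 12.7 in WT. Its CPM was 43.9 and 47.6 in KO and 28.9 and 30.7 in WT, without overlap, and its log2 fold change was 0.62 ± 0.15 (edgeR adjusted p = 0.197). The identifier of the row belongs in GENCODE M21 to Xntrpc, a locus that joins Xndc1 and Trpc2 and shares 2803 of the 2874 annotated exon bases of Trpc2 on the same strand, so the reads may belong to either.

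Pkd2, the polycystin channel of cilia and endoplasmic reticulum, had an FPKM of 21.8 and 20.6 in KO against 25.02 and 22.35 in WT (log2 fold change −0.12 ± 0.12). The lysosomal channel gene Mcoln1 had 18.0 and 14.8 FPKM in KO against 23.3 and 19.0 in WT (−0.16 ± 0.19). Both lay between Trpm7 and Trpc1 in level in both genotypes, and the intervals of both fold changes included 0. The receptor-operated channel genes Trpc6 and Trpc7, the related Trpc4 and the lysosomal Mcoln3 were low, with log2 fold changes between −0.42 and 0.48 and intervals that all included 0. Trpm1 and Trpv5 were listed at 0 in all 4 libraries.

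The 5 genes whose profile over the 4 libraries was most like that of Trpm5 were Cntnap2, Vwa5b1, Fcgbp, Adora3 and Prss53. Likeness was the root mean square distance between centred log2(CPM + 1) profiles, which was 0.342 for Cntnap2 and 0.373 for Prss53, against a median of 1.27 over the 12245 genes compared. Cntnap2, a neurexin-like adhesion protein, had 8.02 and 3.48 CPM in KO against 70.2 and 26.2 in WT. Adora3, the adenosine A3 receptor, had 5.91 and 3.26 CPM in KO against 21.2 and 12.1 in WT. Prss53, a serine protease, had 60.1 and 32.4 CPM in KO against 309 and 92.8 in WT. In all 5 genes, as in Trpm5, both KO libraries were lower than both WT libraries and replicate 1 was higher than replicate 2 in each genotype, which is what the measure selects for. The measure also selects for the KO to WT difference, so the fold changes and calls of these genes are descriptions only. Their log2 fold changes ran from −3.06 to −1.85. None passed the edgeR threshold with all libraries and no pairing (lowest adjusted p 0.103, for Cntnap2). DESeq2 called 3 of the 5, Cntnap2 (adjusted p = 0.038), Vwa5b1 (0.046) and Adora3 (0.042), against 1.16% of all genes it tested. It gave Fcgbp no adjusted p. In edgeR without WT replicate 2 the log2 fold change was −3.60 for Cntnap2, −2.64 for Vwa5b1 and −3.01 for Fcgbp. It was −2.20 for Adora3 and −2.73 for Prss53.

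Some beta cell markers were lower in KO as well. Of 10 beta cell markers 8 had a negative log2 fold change, although Ins1, G6pc2 and Ucn3 among them overlapped in CPM between the genotypes. In edgeR 2 of the 10 passed the test, against 0.227% of all tested genes. Mafa, a transcription factor of mature beta cells, had 15.0 and 4.996 CPM in KO and 110 and 120 in WT (log2 fold change −3.52 ± 0.36, edgeR adjusted p = 0.034). Nkx6-1, which maintains beta cell identity, had 173 and 187 CPM in KO and 347 and 327 in WT (−0.90 ± 0.11, edgeR adjusted p = 0.041). With either KO library left out Nkx6-1 no longer passed (log2 fold change −0.86 without the first and −0.96 without the second). Limma called neither gene (adjusted p from 0.420 to 0.503 under its 3 settings), but it called 0 genes of the whole table. DESeq2 called 5 of the 10, against 1.16% of all genes it tested. Besides Mafa and Nkx6-1 these were Ins2, discussed with the neighbours of Trpm5, the glucose transporter gene Slc2a2 (499 and 406 CPM in KO, 731 and 576 in WT; DESeq2 adjusted p = 0.047) and, higher in KO, the amylin gene Iapp (10597 and 11705 CPM in KO, 7817 and 7683 in WT; DESeq2 log2 fold change 0.52 ± 0.11, adjusted p = 0.000745). The other marker with higher values in KO was the zinc transporter gene Slc30a8, at 1492 and 1466 CPM in KO and 1186 and 1316 in WT. Slc2a2, Iapp, Slc30a8, Ins1, G6pc2 and Ucn3 are named here after their values were seen. The summed CPM of the 7 beta cell markers other than Ins1, Ins2 and Iapp was 3573 and 3414 in KO, against 4264 and 3635 in WT. Trpm5 amounted to 0.845% and 0.344% of that sum in KO and to 2.98% and 1.897% in WT. That sum leaves out Ins1 and Ins2, whose means were lower in KO, and includes Slc30a8, which was higher in KO. Without Slc30a8, a sum added after the data were seen, the markers added to 2081 and 1948 CPM in KO and 3078 and 2319 in WT, and Trpm5 amounted to 1.45% and 0.602% of them in KO and to 4.13% and 2.97% in WT. In bulk islets, fewer cells of a type and less RNA per cell cannot be told apart.

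**Figure D4:**
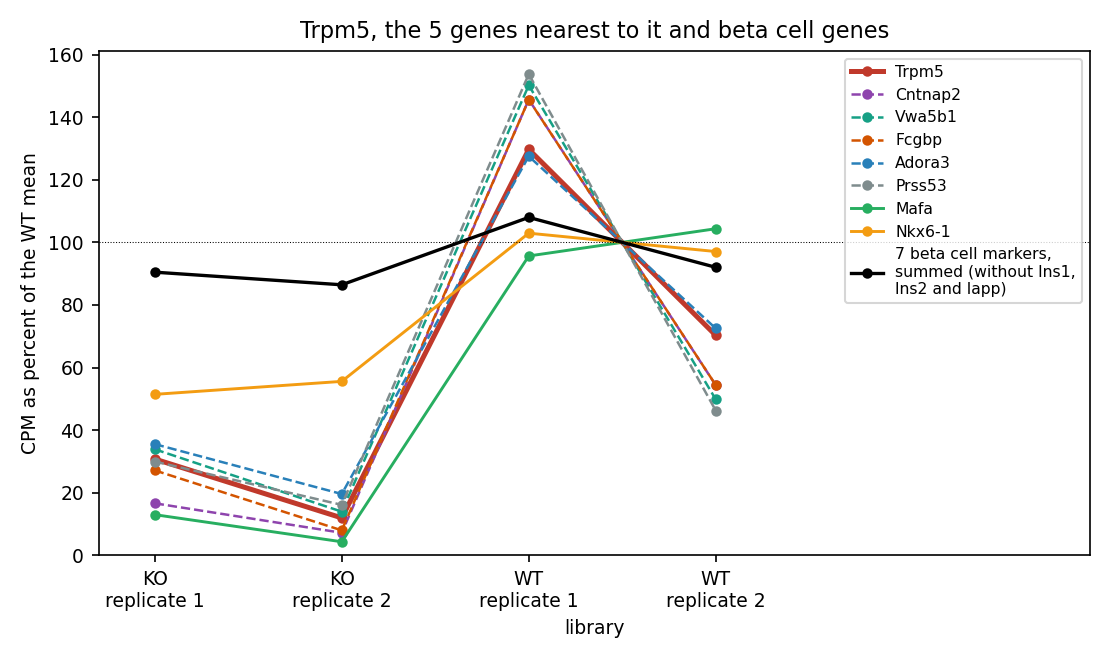
CPM of Trpm5, of the 5 genes nearest to it, of Mafa and Nkx6-1, and of 7 summed beta cell markers without Ins1, Ins2 and Iapp, each as a percent of its WT mean, by library with KO left of WT. Trpm5, its nearest genes and Mafa are under 40% of the WT mean in both KO libraries, Nkx6-1 is between 50% and 60%, and the marker sum is between 80% and 100%.

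Other cell types were also represented in these libraries. Ppy, the hormone of PP cells, was higher in KO, at 1074 and 801 CPM in KO and 375 and 348 in WT. Its log2 fold change was 1.37 ± 0.16 (edgeR adjusted p = 0.035). Limma, which called 0 genes of the whole table, did not call it (adjusted p from 0.420 to 0.503). Summed alpha cell markers were at 48085 and 60650 CPM in KO and 41982 and 44120 in WT, and acinar markers at 3190 and 6459 in KO and 6888 and 4588 in WT. The 7 tested immune markers were all higher in KO with 0 called (1 at an unadjusted p under 0.05, DESeq2 0, limma 0), at a sum of 168 and 110 CPM in KO and 112 and 64.5 in WT. Leukocytes also express Trpm2, which was lower in both KO libraries, and Trpv2, whose CPM overlapped between KO and WT. Mesenchymal markers were at 942 and 824 CPM in KO and 1685 and 656 in WT, so that they were highest in WT replicate 1, as Trpm5 was. Endothelial markers were at 907 and 767 CPM in KO and 890 and 795 in WT, and ductal markers at 305 and 323 in KO and 241 and 296 in WT. With all libraries and no pairing, none of the alpha, acinar, mesenchymal, endothelial or ductal markers was called by edgeR, DESeq2 or limma. An unadjusted edgeR p under 0.05 was reached there by 2 alpha, 1 mesenchymal and 1 ductal marker. Without WT replicate 2, 4 of the 6 mesenchymal markers had log2 fold changes of −2.29 to −0.87, and 1 ductal marker had 0.97. That fit compared KO with WT replicate 1 alone, where mesenchymal markers were highest. Among beta cell markers the same fit gave −3.45 for Mafa, −0.94 for Nkx6-1 and −0.81 for Ins2. It gave −0.69 for Slc2a2, −0.60 for Ins1 and −0.57 for G6pc2, and 0.51 for Iapp. Markers of gut tuft cells, which express Trpm5, summed to 24.9 and 34.8 CPM in KO and 23.1 and 32.4 in WT. Most of this was Dclk1, at 20.7 and 28.2 CPM in KO and 20.3 and 25.8 in WT. The defining factor of tuft cells, Pou2f3, was at 0 in 3 libraries and at 0.211 CPM in WT replicate 2. Avil was at 3.59 and 4.78 CPM in KO and 1.71 and 4.65 in WT. Gnat3 was at 0.633 and 1.74 CPM in KO and 1.07 and 1.69 in WT. Whether these islets held tuft cells was not tested. The part of these cell types in the values of the members was not tested.

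The genes to which the genotype label may point were measured in every library. Mettl14 had 14.1 and 15.6 CPM in KO against 21.4 and 21.8 in WT (log2 fold change −0.54 ± 0.22, edgeR adjusted p = 0.369). Mettl3 had 18.6 and 17.2 CPM in KO against 29.3 and 17.1 in WT, with overlap (−0.38 ± 0.28, adjusted p = 0.634), and Neurog3 had 6.33 and 9.12 CPM in KO against 4.93 and 7.19 in WT, with overlap. Whole-gene values need not show the loss of single exons. As a description of the m6A consensus, GGACT on the sense strand of the longest coding transcript occurred 0.970 times per kb in Trpm5, 1.93 in Trpm2 and 1.54 in Trpc1. It occurred 2.36 times per kb in Trpm4 and 0.422 times in Trpm7, beside a median of 1.04 over 12000 tested genes with an annotated coding transcript. Methylation itself was not measured in these libraries.

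Trpm5 works in taste cells at the end of a cascade of G proteins, phospholipase C and inositol trisphosphate receptors. Of 8 genes of that cascade only Itpr3 and Tas1r3 were tested, and 0 were called by edgeR, DESeq2 or limma, with 0 at an unadjusted p under 0.05. DESeq2 gave Tas1r3 no adjusted p and so could not call it. Itpr3, the receptor that releases stored calcium, was the abundant one at 203 and 161 CPM in KO against 217 and 214 in WT (log2 fold change −0.24 ± 0.14). The sweet and umami receptor subunit Tas1r3 had 4.01 and 6.30 CPM in KO against 2.57 and 3.60 in WT (0.73 ± 0.50).

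Receptors and phospholipase C enzymes that feed TRP channels in islet cells gave 12 tested genes, 5 higher and 7 lower in KO with a median log2 fold change of −0.11, and 0 were called by edgeR (2 at an unadjusted p under 0.05). Glp1r, the receptor of the incretin GLP-1, had 144 and 81.9 CPM in KO against 261 and 122 in WT, with overlap (−0.76 ± 0.37, adjusted p = 0.448, and from 0.00749, without WT replicate 2, to 0.932 over all alternatives). Itpr1 had 917 and 980 CPM in KO against 732 and 803 in WT (0.31 ± 0.12, adjusted p = 0.352). DESeq2 called 1 gene of the list and limma 0. The gene was Itpr2, named here after its values were seen, with 180 and 161 CPM in KO against 123 and 70.4 in WT (edgeR 0.82 ± 0.23, adjusted p = 0.239, and 0.012 without WT replicate 1; DESeq2 adjusted p = 0.031).

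The partners of the other members went in both directions. Of 7 tested genes of store-operated calcium entry, the setting in which Trpc1 is studied, 5 were higher and 2 lower (median 0.10), and Stim1, the calcium sensor of the store, had 93.7 and 97.5 CPM in KO against 95.7 and 82.5 in WT. Its relative Stim2 had 74.9 and 94.9 CPM in KO against 73.9 and 66.2 in WT (log2 fold change 0.28 ± 0.15). Of 7 tested genes that make or remove ADP-ribose and NAD, the source of the Trpm2 ligand, 4 were higher and 3 lower (median 0.04), and Parp1 had 67.5 and 68.2 CPM in KO against 92.7 and 86.1 in WT (−0.40 ± 0.12, edgeR adjusted p = 0.269). Parg, which frees ADP-ribose from its polymer, had 97.5 and 104 CPM in KO against 102 and 107 in WT. Of 10 tested magnesium transport genes, the ion most tied to Trpm7, 3 were higher and 7 lower (median −0.10), and Magt1 had 234 and 237 CPM in KO against 299 and 293 in WT (−0.33 ± 0.10, edgeR adjusted p = 0.272). Its homologue Tusc3 had 106 and 120 CPM in KO against 103 and 88.4 in WT (0.24 ± 0.13). Of 6 tested genes that set the membrane potential of beta cells 4 were higher and 2 lower (median 0.05), and Abcc8, the sulfonylurea receptor, had 952 and 819 CPM in KO against 955 and 931 in WT. The potassium channel gene Kcnk16 had 78.7 and 79.3 CPM in KO against 71.7 and 69.6 in WT. With all libraries, none of these 4 lists had a gene called by edgeR, DESeq2 or limma. Without WT replicate 1, edgeR called 1 gene of the magnesium list, the transporter gene Cnnm3, higher in KO (log2 fold change 1.21 ± 0.20, adjusted p = 0.032), and it is named here after its values were seen. At an unadjusted edgeR p under 0.05 there were 1 gene in the ADP-ribose list, 2 in the magnesium list and 0 in the other lists.

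The neighbours of Trpm5 on chromosome 7 went in both directions. Of 11 neighbours 7 were tested, 4 higher and 3 lower in KO with a median log2 fold change of 0.05, and 0 were called by edgeR (3 at an unadjusted p under 0.05). Cd81, a tetraspanin gene that ends 1.22 kb away, had 236 and 238 CPM in KO against 159 and 204 in WT, which is the opposite direction (0.39 ± 0.14, adjusted p = 0.325). Ins2, an insulin gene whose annotated span ends 326 kb away, had 17215 and 20025 CPM in KO against 32575 and 23223 in WT. This was the same direction as Trpm5 at a smaller size (−0.58 ± 0.16, edgeR adjusted p = 0.238). DESeq2 called 2 of the 7 and limma 0. These were Ins2, lower in KO (DESeq2 adjusted p = 0.013), and Th, higher in KO and named here after its values were seen. Th, whose annotated span ends 138 kb away, had 61.0 and 55.6 CPM in KO against 30.4 and 31.7 in WT. Its adjusted p was 0.031 with DESeq2 and 0.082 with edgeR. Without WT replicate 2 edgeR called both (adjusted p = 0.00056 for Ins2 and 0.023 for Th).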

How the data were processed

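Total RNA of islets was depleted of ribosomal RNA, and strand-specific libraries were read as 150-base paired ends, per the labels' protocols. The submitters' processing notes name cutadapt 1.9.3, HISAT2 2.0.4, Cufflinks, Cuffdiff and mm10; which annotation was used and how reads were counted is not stated there. The authors deposited an estimated count and an FPKM per gene and library, per the file headers. The deposited counts had been scaled: 94.0% to 94.6% of low values were whole multiples, within 0.1, of one step per library (0.901, 1.15, 0.901 and 1.09 in KO 1, KO 2, WT 1 and WT 2), and fragments here are counts divided by it.

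Counts were rounded, 79 repeated symbols were summed, and 12789 genes that passed filterByExpr were tested with edgeR 4.0.16 (TMM, quasi-likelihood, two-sided, Benjamini-Hochberg over all genes); 29 were called. The fit was first tested on simulated data. DESeq2 1.42.0 and limma 3.58.1 were alternatives. The members and gene lists were chosen with earlier results of these data known. Named are all members, other TRP genes that were called or reached an FPKM of 0.5 in either group's mean, the called or 2 most abundant tested genes of each list (of marker lists only called genes), the 5 genes nearest to Trpm5, and the genes of the genotype label. Other genes are named for an overlap, a zero level or after their values were seen. A further TRP gene is not reported here. Trpm4 and Trpa1 had no RefSeq promoter window in the table used.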

Additional observations from a re-analysis of the deposited data

How the results depend on the processing

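Each of the 7 tested members kept the direction of its log2 fold change, wherever it passed that setting's filter, under DESeq2, upper-quartile factors, no filter on low counts, undone library scaling, and limma at both pseudocounts and without a filter. Trpv2 reversed to 0.25 without WT replicate 1 (range −0.83 to 0.25 with 1 library left out). Trpm5 ran from −3.07 to −1.70 in those fits. Its adjusted p ran from 0.101 to 0.503 over the alternatives with all 4 libraries and no replicate block, and 0 members were called in these. Genes called over the whole table were 29 with edgeR, 148 with DESeq2, 0 with limma under all 3 settings (1173 at an unadjusted p under 0.05 on log2(FPKM + 1)), and 10 to 245 with 1 library left out: leaving out KO 1 gave 55, KO 2 gave 10, WT 1 gave 87 and WT 2 gave 245. Genes called in the other lists were 3 with edgeR, 8 with DESeq2, 0 with limma under all 3 settings, and 2 to 15 with 1 library left out, the highest without WT replicate 2 and 5 without WT replicate 1. Limma's sign was reversed for Mcoln3 (0.19, and 0.26 with a pseudocount of 0.1) and Parg (0.18 and 0.19). With 1 library left out the sign also changed for Trpc4 (−0.54 to 7.48), Trpc6 (−0.47 to 1.19), Trpc7 (−0.45 to 0.63), Stim1 (−0.00047 to 0.20), Abcc8 (−0.22 to 0.012) and Mettl3 (−0.71 to 0.050). The causes were not tested. A fit that left 1 library in a group assumed that it varies like the other group.

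The replicate numbers do not state a shared origin. Deviations of same-numbered libraries correlated at 0.185, with only 2 pairs. With the replicate block edgeR called 214 genes, 1 member and 10 genes of the other lists. The member was Trpm5, at −2.27 (adjusted p = 0.000736), and no other member's call changed with the pairing. The 10 were Glp1r (adjusted p = 0.017), Itpr2, Th, Mafa, Nkx6-1, Slc2a2, Iapp, Ppy, Pnlip (lower in KO, 0.018) and Cldn4 (higher in KO, 0.044), and the block also called Cntnap2, Vwa5b1, Adora3 and Prss53 (0.000736 to 0.029). Dividing the deposited count by the deposited length was not run, because that column holds the genomic span. Counting noise limits Trpv2 and Trpa1, and 2 pools a group limit every member.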
